A study of Cavia porcellus with 10 samples.

Results

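The SR splicing factors are a family of nuclear proteins that bind pre-mRNA and help to choose which exons are kept. The genes described are the 10 named SRSF1 to SRSF7 and SRSF9 to SRSF11, chosen by symbol in a table of RNA-seq read counts from guinea pig sclera. Of these 10, 9 matched a line of the table by symbol, ignoring case, each on 1 line (the table writes Srsf4 and Srsf10 in mixed case), and SRSF2 was not analysed here. All 9 passed the filter on low counts and were among 14683 genes tested, of 17642 lines with a symbol. None of them was near that filter, since the lowest count of any of the 9 in any library was 755, for SRSF10 in control library 2. The sclera is the tough collagenous wall of the eyeball. The tissue came from male guinea pigs (Cavia porcellus) aged 2 to 3 weeks, either untreated (control, 5 eyes) or with lens-induced myopia in both eyes (myopia, 5 eyes), in which spectacle lenses drive the eye to become nearsighted. The sources used here give neither the lens power nor the length of wear. They also do not say whether eyes of a group shared an animal, and the p-values rest on the spread between these 10 eyes.

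An SR protein carries at its start an RNA recognition motif, or a pair of them, and at its end a stretch rich in arginine and serine called the RS domain. Bound to an exonic enhancer, it recruits the U1 particle to the splice site at the start of an intron and the U2AF dimer to the site at its end. Kinases of the SRPK family phosphorylate the RS domain in the cytoplasm, which lets transportin carry the protein into the nucleus, and CLK kinases phosphorylate it further in nuclear speckles. Many SR genes also hold a poison exon, whose inclusion sends the transcript to nonsense-mediated decay. The table counts reads per gene, so protein-coding transcripts and those with a poison exon were counted together.

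In the myopic sclera 6 of the 9 SR genes rose, 1 fell and 2 did not pass the test. The risers were SRSF1, SRSF5, SRSF6, SRSF7, SRSF10 and SRSF11, between 1.79-fold for SRSF11 and 2.43-fold for SRSF10. SRSF9 fell 1.77-fold, and SRSF3 and SRSF4 had ratios of 1.03 and 1.08. The test was edgeR's quasi-likelihood test with p-values adjusted over all genes tested (Benjamini-Hochberg) and a threshold of 0.05. By the same rule 71.9% of all genes tested were called, 36.9% as higher and 35.1% as lower in myopia, against 66.7% and 11.1% of the 9. The median log2 fold change was 0.91 over the 9 genes and 0.03 over all genes tested. The 6 risers were higher in every myopia library than in any control library, as were 29.8% of all genes tested, and SRSF9 was lower in every myopia library, as were 28.0% of all genes (57.8% either way). In whole tissue, fewer cells of a type and less RNA per cell cannot be told apart.

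**Figure D1:**
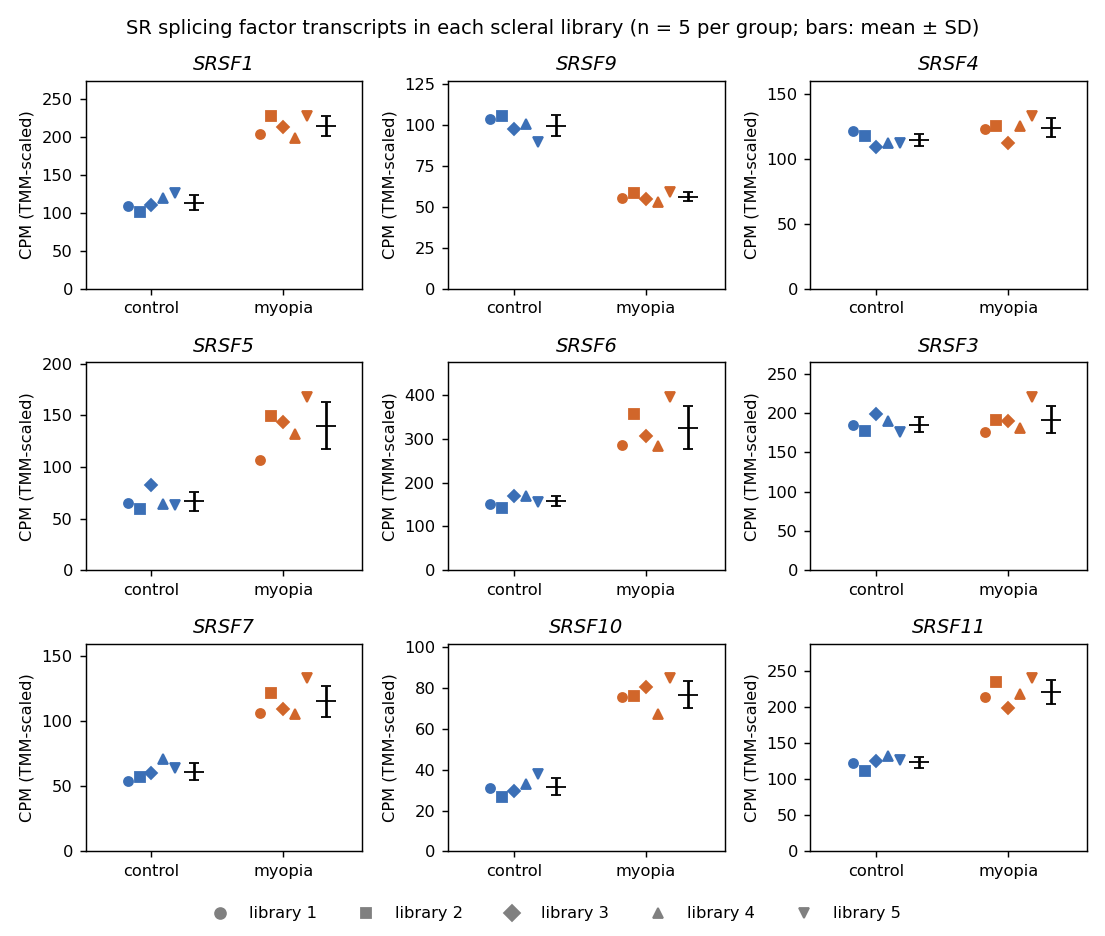
Each panel plots 1 gene, with CPM (reads of a gene per 1000000 reads, scaled by TMM factors) on the vertical axis (from 0) and the 5 control and 5 myopia libraries as points, 1 shape per library number, beside the group mean ± SD. The groups separate for SRSF1, SRSF5, SRSF6, SRSF7, SRSF10 and SRSF11 upward and for SRSF9 downward, and overlap for SRSF3 and SRSF4.

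SRSF1 and SRSF9 are close relatives, each with a pair of RNA recognition motifs, and they moved in opposite directions. SRSF1, the founding member of the family, promotes exon inclusion and also acts in nonsense-mediated decay and translation. Its level was 109, 101, 111, 119 and 127 CPM in control libraries 1 to 5 and 204, 228, 213, 199 and 228 CPM in myopia libraries 1 to 5. Control libraries 4 and 5 were the highest of the untreated eyes, and still well below the lowest myopia library. The means were 114 ± 9.81 and 215 ± 13.3 CPM (SD, n = 5 per group), and the log2 fold change was 0.92 ± 0.09 (SE, adjusted p = 1.15e-06). SRSF9, which has a short RS domain, stood at 104, 106, 97.2, 101 and 89.4 CPM in control and at 55.4, 58.7, 54.5, 53.0 and 59.1 CPM in myopia. The 5 myopia values lay close together, all under the lowest control library, number 5. The means were 99.3 ± 6.41 and 56.1 ± 2.65 CPM, which is -0.82 ± 0.08 on the log2 scale (adjusted p = 1.12e-06).

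Because both genes are counted in the same library, the ratio of their raw counts does not depend on how libraries are scaled. For 1 SRSF9 read there were 1.05, 0.960, 1.14, 1.19 and 1.42 SRSF1 reads in control libraries 1 to 5 and 3.69, 3.89, 3.90, 3.76 and 3.86 in myopia. The myopia libraries were nearly alike in this ratio, and all were above every control library. On the log2 scale the ratio was 0.19 ± 0.21 in control and 1.93 ± 0.03 in myopia (SD, n = 5 per group), a difference of 1.74. A two-sided exact permutation test over the libraries gave p = 0.00794, the smallest that 5 against 5 allows, and 0.0124 after adjustment over the 36 pairs of the 9 genes. With SRSF1 higher and SRSF9 lower in every myopia library, the ratio had to separate. This p-value was therefore fixed by the levels above and adds no separate evidence. The count ratio to SRSF9 did not overlap between groups for 62.6% of all genes tested.

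SRSF4, SRSF5 and SRSF6 form a second group of relatives with a pair of recognition motifs each, and here SRSF4, which has the longest RS domain of the family, parted from the others. SRSF5, a splicing activator, stood at 64.8, 59.3, 82.7, 64.2 and 62.8 CPM in control and 107, 149.5, 143, 132 and 168 CPM in myopia. Control library 3 stood above the other untreated eyes, and myopia library 1 below the other myopic eyes, but the groups did not overlap. SRSF5 went from 66.8 ± 9.17 to 139.9 ± 22.6 CPM (SD, n = 5 per group), and the log2 fold change was 1.07 ± 0.13 (SE, adjusted p = 6.18e-06). SRSF6, which like SRSF1 binds exonic enhancers, stood at 152, 143, 171, 170.3 and 156 CPM in control and 287, 357, 307, 283 and 396 CPM in myopia. Myopia libraries 2 and 5 were the highest for SRSF5 and SRSF6 alike. SRSF6 went from 158 ± 11.99 to 326 ± 48.8 CPM, which is 1.04 ± 0.11 on the log2 scale (adjusted p = 2.57e-06). The spread among myopic eyes was wider for this pair, with coefficients of variation of 16.2% and 14.98%, than for the other 7 genes, at 4.72% to 10.2%.

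SRSF4 stood at 122, 118, 109, 112 and 112 CPM in control and 123, 126, 113, 125 and 133 CPM in myopia. The groups overlapped, with 4 of 5 myopia libraries above the highest control library. The means were 115 ± 4.89 and 124 ± 7.45 CPM, and the log2 fold change of 0.11 ± 0.08 did not pass (adjusted p = 0.189). The call depended on scaling, since with upper-quartile factors it was 0.18 (adjusted p = 0.0312) and with scaling by total count 0.56 (adjusted p = 4.75e-05).

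SRSF3 and SRSF7 are small members with a single recognition motif, known as adaptors that hand spliced mRNA to the export receptor NXF1, and SRSF7 also holds a zinc knuckle. SRSF3 stood at 185, 177, 198, 189 and 176 CPM in control and 176, 190.5, 189, 181 and 220.2 CPM in myopia. The groups overlapped over most of their range, and only myopia library 5 lay above every control library. The means were 185 ± 9.16 and 191 ± 17.2 CPM (SD, n = 5 per group), and the log2 fold change of 0.05 ± 0.08 did not pass (adjusted p = 0.614). It became -0.0056 without myopia library 5 (adjusted p = 0.955), and 0.50 with scaling by total count (adjusted p = 0.000282). SRSF7 stood at 53.9, 56.9, 60.5, 70.7 and 64.4 CPM in control and 106.5, 122, 109, 105 and 133 CPM in myopia. Control libraries 4 and 5 were again the highest untreated eyes, with a clear gap to the lowest myopic eye. SRSF7 went from 61.3 ± 6.57 to 115 ± 11.8 CPM, which is 0.91 ± 0.10 on the log2 scale (adjusted p = 3.10e-06). The count ratio of SRSF3 to SRSF7 fell from between 2.68 and 3.43 in control to between 1.57 and 1.74 in myopia (exact permutation p = 0.00794, 0.0124 over 36 pairs).

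SRSF10 and SRSF11 stand further from the classical members. SRSF10 represses splicing when its RS domain is dephosphorylated, as in mitosis and after heat shock, and SRSF11 is a speckle protein that contacts U2AF. SRSF10 stood at 30.8, 26.6, 29.5, 32.9 and 37.7 CPM in control and 75.3, 76.1, 80.3, 67.1 and 84.6 CPM in myopia. Control library 5 was the highest untreated eye, and the lowest myopic eye, number 4, lay far above it. SRSF10 went from 31.5 ± 4.15 to 76.7 ± 6.53 CPM (SD, n = 5 per group), and the log2 fold change was 1.28 ± 0.10 (SE, adjusted p = 4.63e-07), the highest of the 9. SRSF11 stood at 122, 112, 126, 133 and 126 CPM in control and 214, 235, 198.5, 219 and 240.4 CPM in myopia. The groups were compact and well apart. SRSF11 went from 124 ± 7.59 to 221 ± 16.8 CPM, which is 0.84 ± 0.08 on the log2 scale (adjusted p = 1.79e-06).

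The change in SR genes stood against a shift of much of the transcriptome and of the library scaling. TMM factors ranged from 0.777 to 0.968 among control and from 1.11 to 1.25 among myopia libraries, while total counts per library spanned 32568123 to 35430797 for control and 32309258 to 34055139 for myopia. Under total-count scaling the median over all genes tested was 0.47 on the log2 scale, and 73.5% of calls were higher in myopia, against 51.2% with TMM factors. Over all genes tested 52% were then called higher and 18.7% lower. All 8 other SR genes were above 0, SRSF3 and SRSF4 among the risers, though at 0.50 and 0.56 these lay near that median. SRSF9 was still lower, at -0.37 on the log2 scale (edgeR, adjusted p = 0.000317). Taken relative to the median of all genes tested, each of the 9 differed by at most 0.0111 between these scalings. A change of scaling shifts all genes nearly alike, so so small a difference follows from the calculation and is no check of the SR genes. Together the 9 genes took 0.0732% to 0.0920% of each control library and 0.157% to 0.195% of each myopia library. Within control, TMM factors rose in order from library 1 to 5 (0.7775, 0.814, 0.846, 0.884 and 0.968). The share of the 9 genes was 0.0733%, 0.0732%, 0.0833%, 0.0877% and 0.0920% in these libraries. Both thus climbed among untreated eyes in the direction of the group difference, and what lies behind this gradient was not tested. Without control libraries 4 and 5 the counts stayed at 6 higher and 1 lower, and the median log2 fold change of the 9 was 1.02. Over all genes tested in that fit 38.3% were higher and 34.7% lower, and the median was 0.07.

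**Figure D2:**
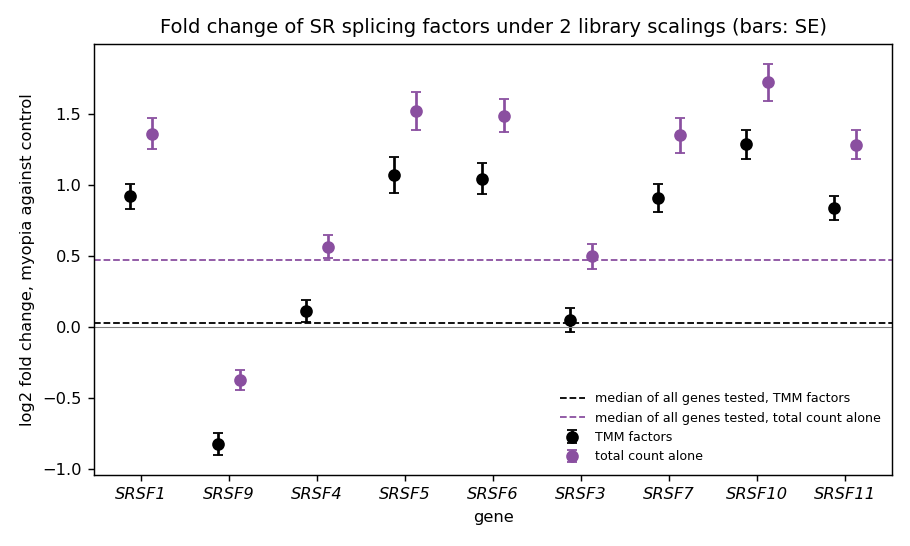
The vertical axis gives the log2 fold change of myopia against control (bars are SE, n = 5 per group) for each gene, with TMM factors in black and scaling by total count in purple, and dashed lines mark the median of all genes tested under each (0.03 and 0.47). The order of the genes is the same under both, and SRSF3 and SRSF4 lie near the dashed line under each.

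Each SR gene was also set against every other within the same library, as for SRSF1 and SRSF9. Of the 36 count ratios, 24 differed between groups at an adjusted p under 0.05 (exact permutation test, adjusted over the 36), and 23 did not overlap between groups. For comparison, the count ratio of all other genes tested to SRSF3, SRSF4 and SRSF5 did not overlap between groups in 53.9%, 56.2% and 57.7% of cases, that to SRSF9 in 62.6%, to SRSF11 in 62.8%, to SRSF6 and SRSF7 in 63.1% each, to SRSF1 in 66.4% and to SRSF10 in 72.0%. The share of the 36 that did not overlap lay within the range of these shares, and no such share was computed for the 24. SRSF9 fell relative to each of the other 8, by 0.87 on the log2 scale against SRSF3 and by 2.11 against SRSF10. In libraries 1 to 5 there were 3.37, 3.97, 3.30, 3.06 and 2.37 SRSF9 reads per SRSF10 read in control, and 0.736, 0.771, 0.679, 0.791 and 0.699 in myopia. All control ratios lay above all myopia ratios, with no overlap. SRSF3 and SRSF4 fell relative to each of the 6 risers in all 12 ratios, by 0.72 to 1.24. Against each other the ratio changed by -0.07, from 0.69 ± 0.11 to 0.62 ± 0.11 (SD, exact permutation test, adjusted p = 0.429). The risers were named from fold changes in these same counts. The 12 ratios, like the 8 with SRSF9, therefore largely restate those fold changes, and all 36 come from only 9 genes.

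Among the 6 risers 4 of 15 ratios passed, and no share over all genes was computed for that count. Of the 15, 3 did not overlap between groups. The count ratio of all other genes tested to a riser did not overlap in 57.7% (SRSF5) to 72.0% (SRSF10) of cases. Because the 6 were grouped by their rise in these same counts, that choice in part sets the lower share. SRSF10 rose relative to SRSF1, SRSF7 and SRSF11, by 0.37, 0.38 and 0.45 on the log2 scale (exact permutation p = 0.00794 each, adjusted p = 0.0124), and SRSF6 relative to SRSF11 by 0.20 (exact permutation p = 0.0317, adjusted p = 0.0476). The ratio of SRSF1 to SRSF7 was 0.89 ± 0.11 in control and 0.90 ± 0.07 in myopia (SD, n = 5 per group), a difference of 0.01 (exact permutation p = 0.857). The remaining 11 ratios among the risers did not pass, which does not show that those genes moved alike.

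**Figure D3:**
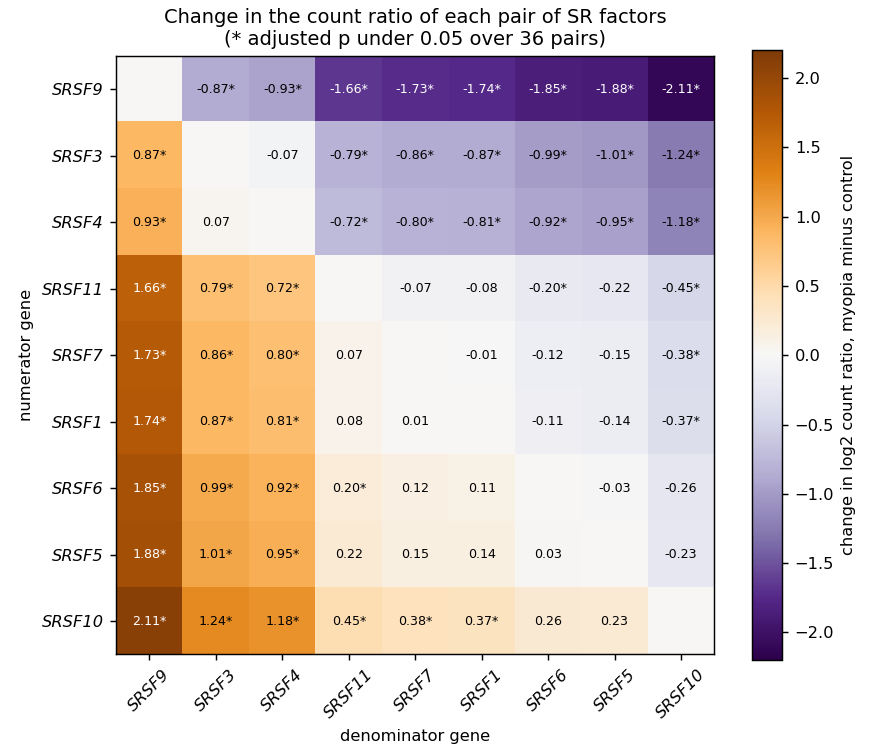
Each cell gives the change, myopia minus control, of the log2 count ratio of the gene in the row to the gene in the column, and a star marks an adjusted p under 0.05 over the 36 pairs. The SRSF9 row is negative throughout (-0.87 to -2.11), the SRSF3 and SRSF4 rows are negative against the 6 risers, and the block of risers is pale except for SRSF10.

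The genes whose log2 CPM followed the mean of the 9 most closely over the 10 libraries were CLK4 (Pearson r of 0.996), ZNF226 (0.995) and RBM39 (0.993). CLK4 is a kinase of SR proteins, RBM39 is a splicing factor with an RS domain, and ZNF226 encodes a zinc finger protein. CLK4 went from 26.2 ± 3.98 to 85.3 ± 14.3 CPM, ZNF226 from 9.71 ± 0.605 to 21.2 ± 3.71 CPM and RBM39 from 122.6 ± 6.81 to 266 ± 30.2 CPM (SD, n = 5 per group). These correlations span the group difference, and 17.8% of the 9609 genes compared, those with a mean of at least 10 CPM, had an r above 0.9.

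Of 9 kinases that phosphorylate SR proteins 7 rose and 1 fell, where 36.9% of all genes tested were higher and 35.1% lower; the median log2 fold change was 0.38. The speckle kinases CLK4 and CLK1 rose, with log2 fold changes of 1.70 ± 0.13 and 1.399 ± 0.120 (SE), and PRPF4B, a kinase of the spliceosome, by 1.28 ± 0.08 (adjusted p = 4.08e-07, 6.72e-07 and 1.49e-07). SRPK1 and SRPK2, the cytoplasmic kinases, named after their values were seen, rose less, by 0.35 ± 0.08 and 0.38 ± 0.09. CLK3, also named after its value was seen, was the kinase that fell, by 0.47 ± 0.11. Of 7 genes for dephosphorylation and nuclear import 5 rose and 2 fell, against the same shares; the median was 0.46. Of the 3 catalytic subunit genes of protein phosphatase 1, PPP1CA fell by 1.03 ± 0.10 on the log2 scale (adjusted p = 1.88e-06), while PPP1CB and PPP1CC, named after their values were seen, rose by 0.86 ± 0.13 and 0.46 ± 0.09 (adjusted p = 6.65e-05 and 0.000265). The phosphatase's nuclear inhibitor PPP1R8 rose by 0.91 ± 0.14 and the import receptor TNPO1 by 0.85 ± 0.10 (adjusted p = 6.39e-05 and 5.83e-06). TNPO3, the transportin of SR proteins (also named with its value known), rose by 0.40 ± 0.10.

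SR-related proteins carry RS-rich stretches or work beside SR proteins; of 28 listed, 24 matched a line and 23 were tested. Of these 23, 16 rose and 5 fell, beside 36.9% higher and 35.1% lower over all genes tested; the median log2 fold change was 0.68. LUC7L3, a U1-associated protein, went from 46.3 ± 5.24 to 149.6 ± 10.04 CPM, PNN, a speckle protein, from 29.1 ± 2.99 to 82.5 ± 4.41 CPM, and BCLAF1 from 32.1 ± 4.63 to 110.2 ± 8.52 CPM (SD, n = 5 per group). Their log2 fold changes were 1.69 ± 0.09, 1.504 ± 0.088 and 1.78 ± 0.11 (SE; adjusted p = 4.75e-08, 6.71e-08 and 7.52e-08). SRSF12, an SR protein outside the 10 and named after its value was seen, was low, at 2.18 ± 0.605 and 2.17 ± 0.695 CPM, and did not pass (adjusted p = 0.985).

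SR proteins recruit core splicing components to the exon. Of 5 tested genes (6 listed) of U1, U2AF and the branch point binder SF1, 4 fell and 0 passed as higher, where 35.1% of all genes tested were lower and 36.9% higher; the median log2 fold change was -0.77. That count of 0 by edgeR was 1 at an unadjusted p under 0.05, and at an adjusted p it was 0 by DESeq2 and 1 by limma-voom. SNRPA and SNRPC, proteins of U1, fell by 1.12 ± 0.12 and 1.02 ± 0.14, and U2AF2, which binds the polypyrimidine tract, fell by 0.77 ± 0.10 (SE; adjusted p = 2.50e-06, 2.94e-05 and 1.83e-05). SNRNP70, the U1 protein that SR proteins bind and which was named after its value was seen, went from 221 ± 41.9 to 279 ± 43.4 CPM and did not pass (log2 fold change 0.33 ± 0.14, adjusted p = 0.0505). Of 10 genes of the SF3 complex of U2, 8 fell and 1 rose; the median was -0.69. The gene that rose was SF3B1, the large scaffold subunit, by 0.88 ± 0.09, while SF3A2 and SF3B2 fell by 1.61 ± 0.16 and 0.66 ± 0.08 (adjusted p = 1.45e-06, 1.85e-06 and 6.31e-06).

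Of 14 tested genes of nonsense-mediated decay (15 listed) 4 rose, 5 fell and 5 did not pass, near the shares over all genes tested (36.9% higher and 35.1% lower); the median log2 fold change was -0.08. SMG1, the kinase of the pathway, rose by 2.03 ± 0.10 and UPF2 by 1.33 ± 0.11, while SMG9, a partner of SMG1, fell by 1.10 ± 0.13 (SE; adjusted p = 1.95e-08, 4.28e-07 and 5.04e-06). Of 7 partners in mRNA export 3 rose and 4 fell; the median was -0.32. THOC2, of the THO complex, rose by 1.55 ± 0.11, and the adaptor ALYREF and the NXF1 cofactor NXT1 fell by 0.99 ± 0.09 and 1.08 ± 0.15 (adjusted p = 2.37e-07, 7.75e-07 and 3.20e-05). With scaling by total count the counts of lower genes dropped to 0 of the kinases, 1 of the import list, 2 of the SR-related list, 5 of SF3, 3 of the decay list and 2 of the export list. Higher genes went from 4 to 9 of the 14 in the decay list, from 1 to 2 in SF3 and from 0 to 1 in the U1 and U2AF list, while over all genes tested 52% were then higher and 18.7% lower.

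**Figure D4:**
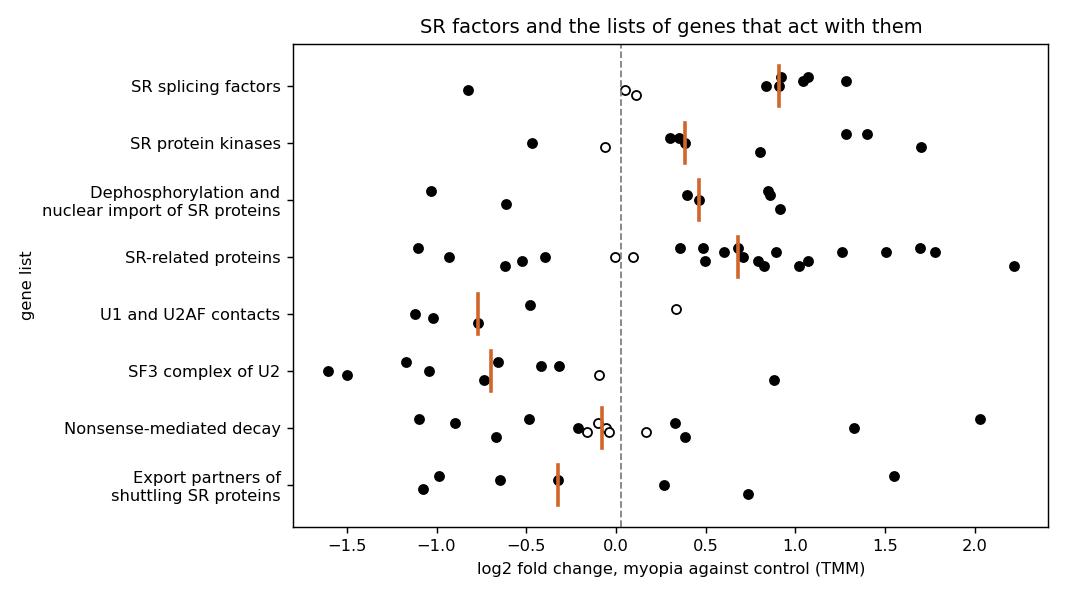
Points are genes, filled where the adjusted p is under 0.05 and open otherwise, at their log2 fold change of myopia against control with TMM factors; orange bars mark list medians and the dashed line the median of all genes tested (0.03). The medians of the SR factors, SR protein kinases, dephosphorylation and import genes (0.46) and SR-related proteins lie to the right of the dashed line. Those of the U1 and U2AF contacts, the SF3 complex, nonsense-mediated decay (-0.08) and the export partners (-0.32) lie to the left.

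The libraries carried the fibroblast genes of sclera, COL1A1 at 82710 ± 9356 CPM in control and 35550 ± 3273 CPM in myopia (SD, n = 5 per group), and transcripts of other tissues, some of which differed between the groups. For the marker counts, the background was 36.9% higher and 35.1% lower over all genes tested, which several lists do not exceed. Of the 8 fibroblast markers 2 rose (DCN and PDGFRA) and 3 fell (COL1A1, COL3A1 and FBLN1). Their summed level was 122900 to 154300 CPM in control and 68550 to 94550 CPM in myopia. COL1A1 and COL1A2 made up most of this sum in both groups, and COL1A2 did not pass. All 4 red blood cell markers fell (2503 to 10560 CPM in control, 100.1 to 456 in myopia). So did 4 of 5 leukocyte markers, with 1 higher (348 to 468 and 149.6 to 203 CPM). The higher leukocyte marker was PTPRC, from 8.645 ± 2.46 to 20.53 ± 3.532 CPM, while CSF1R and LAPTM5 made up most of the summed level. Skeletal muscle markers fell in 4 of 6 cases (1969 to 5182 and 1144 to 2743 CPM), melanocyte markers in 3 of 5 with 1 higher (127 to 409 and 31.8 to 191 CPM) and photoreceptor markers in 2 of 5 (147 to 270.5 and 25.4 to 159 CPM). Of cartilage markers 2 of 3 fell (340.3 to 522 and 215 to 297 CPM), of retinal pigment epithelium markers 1 of 4 rose (19.0 to 37.6 and 19.8 to 41.2 CPM), and of endothelial markers 2 of 5 rose and 1 fell (851.5 to 1049 and 676.5 to 1042 CPM). The summed levels of the groups did not overlap for the fibroblast, red blood cell, leukocyte and cartilage markers, and overlapped for the other 5 lists. COMP was the largest part of the cartilage sum, at 294.9 ± 64.31 CPM in control and 133.1 ± 23.91 CPM in myopia. COL2A1 fell with groups that overlapped, and ACAN did not pass (edgeR, adjusted p = 0.0641). None of the markers found was at 0 in all libraries, and the part of these tissues in the SR results was not tested.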

How the data were processed

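Scleral RNA of 10 guinea pig eyes was sequenced from mRNA libraries. The authors deposited raw, whole-number counts for each gene symbol, with 1 column per library. How reads were aligned, annotated and counted, and whether strand was used, is not given in the sources used here. Reads of overlapping genes, antisense partners or near-identical copies may therefore be mixed. The submitters' processing notes list GRCm38 and mm10, builds of the mouse, with no role given. No coordinates or gene lengths are therefore used, levels are not compared between genes, and count ratios of 2 genes are compared only between groups.

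Of 18079 lines, 437 without a symbol (1.18% to 1.69% of counts in control, 0.751% to 0.824% in myopia) were left out. Columns were assigned to groups by library name. Each library counts once. Every pair within a group differed beyond sampling noise (chi-square of 18.2 to 119.6 per degree of freedom), so no library was a copy of another. That does not show whether eyes shared an animal. The test across genes was that of edgeR 4.0.16 (R 4.3.3; filterByExpr with minimum count 10 and minimum total 15, TMM factors, glmQLFit with robust dispersion, glmQLFTest on group), with Benjamini-Hochberg adjustment over the 14683 genes tested and a threshold of 0.05. The standard error is the fold change divided by the root of the F statistic. CPM is reads of a gene per 1000000 reads of the library, scaled by TMM factors. Log2 CPM for correlations used a prior count of 2. The test was run on simulated data with 200 changed genes and the rest equal. In these data 71.9% of genes tested were called, so that run does not cover so broad a shift. Ratios between members were tested by exact permutation of the group labels (252 arrangements). Alternatives used other scalings, filters, DESeq2 1.42.0, limma 3.58.1, a replicate block, summed lines and left-out libraries. All 9 members found are named, and for each list up to 3 called genes with the smallest p; the 3 genes most like the members' mean are also named. Members and lists were chosen with earlier results of these data known. With counts of 755 or more per member and library, the spread between eyes limits precision more than counting does.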

Additional observations from a re-analysis of the deposited data

Results flagged for a closer look

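In 3 of 64 groups of 5 libraries checked (32 named genes), 1 library lay far from the others by Dixon's test, which chance gives in about 1 of 20 groups. SRSF5 in control library 3 stood at 82.7 CPM, with the other control libraries at 59.3 to 64.8 CPM. TNPO1 in myopia library 4 stood at 56.9 CPM, with the other myopia libraries at 72.2 to 76.8 CPM. ALYREF in myopia library 5 stood at 34.1 CPM, with the others at 27.8 to 29.6 CPM. SRSF5 without control library 3 is among the alternatives, and its call held.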

How the results depend on the processing

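Under 22 alternatives the 6 SR genes that rose and SRSF9 kept their direction and stayed past the threshold, with log2 fold changes of 0.81 to 1.72 for the risers and -0.85 to -0.37 for SRSF9. SRSF3 turned to -0.0056 without myopia library 5 (up to 0.0837 with another library left out) and passed with scaling by total count (0.50), and SRSF4 passed with upper-quartile factors (0.18) and total count (0.56). With total count 2752 genes of all tested were lower, against 5149, and lower genes numbered 0 of the kinases, 1 of the dephosphorylation and import list, 2 of the SR-related list, 5 of SF3, 3 of the decay list and 2 of the export list, while 2 of SF3 and 9 of the decay list were higher. In the U1 and U2AF list 1 gene was higher with upper-quartile factors, total count, the stricter filter, limma-voom and summed lines, and 0 to 1 when 1 library was left out. No pairing of the groups by library number was seen, as deviations of same-numbered libraries correlated at -0.13 to 0.01. Such correlations cannot exclude that equal numbers shared an animal or a batch. The replicate block gave 10103 calls over all genes, and 6 SR genes higher and 1 lower. Depth did not limit the SR genes, each with at least 755 reads per library.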
